A study of Homo sapiens with 4 samples.

Results

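Creatine kinases and the genes that supply creatine were followed in a triple-negative breast cancer (TNBC) cell line and its drug-resistant subline. The 6 genes were CKB, CKMT1A, CKMT1B, GATM, GAMT and SLC6A8, found by symbol among the 20799 genes with a value in each library. They were chosen by the measured difference between the groups, since CKMT1A and CKMT1B are higher in the resistant subline, so their differences between the groups are given as a description, with no p, and counts of those that passed the test over all genes support nothing. MDA-MB-468/WT, the untreated parental line (genotype label WT, 2 libraries), is a human TNBC line of basal type derived from a breast adenocarcinoma. MDA-MB-468/R (genotype label Drug resistant, 2 libraries) is its subline kept in adriamycin (doxorubicin), cytoxan (cyclophosphamide) and taxotere (docetaxel) for 6 months. The study's methods describe rising doses followed by a recovery period. A protocol label of the WT samples also names these drugs, but their treatment label reads none and was used. MDA-MB-468/R is a single subline, so any feature of that one selection is shared by both of its libraries, and neither the labels nor the methods say whether the replicates were separate cultures.

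Creatine kinase moves a phosphate group between ATP and creatine, so that phosphocreatine acts as a rapidly available store of high-energy phosphate. CKB encodes the cytosolic brain-type enzyme, and CKMT1A and CKMT1B encode the ubiquitous mitochondrial enzyme, which sits between the mitochondrial membranes and charges creatine with newly made ATP. Creatine is made by GATM, which joins arginine and glycine to guanidinoacetate, and by GAMT, which methylates guanidinoacetate with S-adenosylmethionine, or it is taken up from outside by the transporter SLC6A8. Creatine kinase B is widely expressed in epithelial and brain tissue, whereas the muscle enzymes CKM and CKMT2 mark striated muscle.

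CKMT1A and CKMT1B are neighboring duplicates on chromosome 15. In GENCODE 29 (GRCh38) CKMT1B lies on the plus strand at chr15:43593054-43599406 and CKMT1A on the same strand at chr15:43692886-43699222, with 93479 bases between them. Their 10-exon transcripts of 1779 bases were compared position by position, and 4 bases differed (99.8% identity). The coding sequence of 1251 bases held 2 of these differences, G1448A and C1478T, with the CKMT1A base first and positions counted from 1 at the start of the transcript. Both fall on the third base of a codon in exon 9, and the encoded protein is the same for both genes. The stretch that holds them is shown, since it is the only coding sequence by which a read could be assigned to one gene or the other, with the differing bases in capitals.
CKMT1A: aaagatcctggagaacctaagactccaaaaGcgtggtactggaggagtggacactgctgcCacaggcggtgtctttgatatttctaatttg
CKMT1B: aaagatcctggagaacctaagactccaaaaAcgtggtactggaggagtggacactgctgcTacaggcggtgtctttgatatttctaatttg
These 91 bases lie at chr15:43698655-43698745 for CKMT1A and at chr15:43598841-43598931 for CKMT1B. The assay reads 1 short amplicon per gene, and the position of each amplicon is not given in the sources used here. Of the 1670 windows of 110 bases in the CKMT1A transcript, a length set here to stand for a short amplicon, 85.6% also occur unchanged in CKMT1B. The values of the 2 rows are therefore uncertain one by one, and their sum is given beside them. CKB, GATM and GAMT shared no such window with another annotated transcript, and SLC6A8 shared 1.40% of its windows, with the pseudogene SLC6A10P and the unnamed locus AC133561.1.

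The sequence before the genes is shared as well. The stretch below is identical upstream of both genes and is shown because both rows were higher in MDA-MB-468/R. Capitals mark matches to the motifs searched.
CKMT1A and CKMT1B upstream: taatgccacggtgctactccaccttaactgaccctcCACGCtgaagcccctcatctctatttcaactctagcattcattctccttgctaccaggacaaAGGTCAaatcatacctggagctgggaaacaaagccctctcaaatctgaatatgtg
In RefSeq (GRCh38.p14, plus strand) its 153 bases lie at chr15:43692536-43692688 for CKMT1A and at chr15:43592704-43592856 for CKMT1B, ending 98 bases and 1 base before an annotated start. It holds 1 match to GCGTG, a form of the core of the hypoxia response element, and 1 match to TGACCT, both on the reverse strand. Only this form of the core was searched. TGACCT is only a part of a nuclear receptor element. On either strand, GCGTG occurs in 36.5% and TGACCT in 13.8% of 35116 RefSeq promoter windows of 300 bases. These windows are longer than the stretch shown, so the shares are not for a like length. The TATA box (TATAAA), the CCAAT box (CCAAT), the GC box (GGGCGG) and the E-box (CACGTG) had no match in this stretch. A match is a description of the letters and not of a bound site. RefSeq lists further starts, and in the most alike pair of windows the genes are identical over 275 bases and each window holds 2 GC boxes and 1 E-box. The promoter of CKB (14q32) had 5 GC boxes, 2 CCAAT boxes and 1 TATA box, and those of GATM and SLC6A8 had 3 and 4 GC boxes.

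The deposited values are log2(RPM + 1), where RPM scales the reads of a gene to a common library total. Undoing this scaling put the depth of the R libraries at 7002494 and 7317207 reads and that of the WT libraries at 6845811 and 7980288 reads. The reads of the 6 genes given here are exact to within 3.16 reads, because the values were rounded. Amplicons differ in how well they are copied, so differences were read between libraries and not between genes. The most abundant gene of a list is here only the row with the highest mean RPM over the libraries. The 7 epithelial markers EPCAM, CDH1, KRT7, KRT8, KRT18, KRT19 and EGFR were present in every library, and summed to 11416 to 11648 RPM in the R libraries and 12844 to 12852 RPM in the WT libraries. Of 12 markers of leukocytes, endothelium, red cells, fibroblasts and muscle, 3 to 5 per library had any read, and they summed to 82.1 to 85.5 RPM in the R libraries and 100 to 103 RPM in the WT libraries, and their part in the results was not tested. CD14 made up most of this, and PTPRC, CD3E, VWF, PDGFRB and MYOG were at 0 reads in all 4 libraries. In such bulk RNA, fewer cells with a transcript and less transcript per cell cannot be told apart.

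Of the 6 genes, 5 reached the minimum of 10 reads in 2 or more libraries and entered the limma fit over 12118 genes, and GATM did not. With an adjusted p of at most 0.05 (Benjamini-Hochberg), 3 of the 5 were higher in MDA-MB-468/R (CKMT1A, CKMT1B and GAMT) and 1 was lower (SLC6A8). Over all tested genes 5.36% were higher and 10.6% were lower. With a fold threshold of 2.5 added on the log2(RPM + 1) scale, which understates the change of low genes such as GAMT, CKMT1A and CKMT1B remained, against 0.809% of all tested genes that were higher by this rule. In 4 of the 5 the libraries of the groups did not overlap, as in 58.3% of all tested genes. Since this contrast chose the genes, nothing is read from these counts. SLC6A8 did not pass with another scaling or without the filter on low values, GAMT and SLC6A8 did not pass when either MDA-MB-468/R library was left out, and none of the 5 passed without WT replicate 1 or without WT replicate 2.

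**Figure D1:**
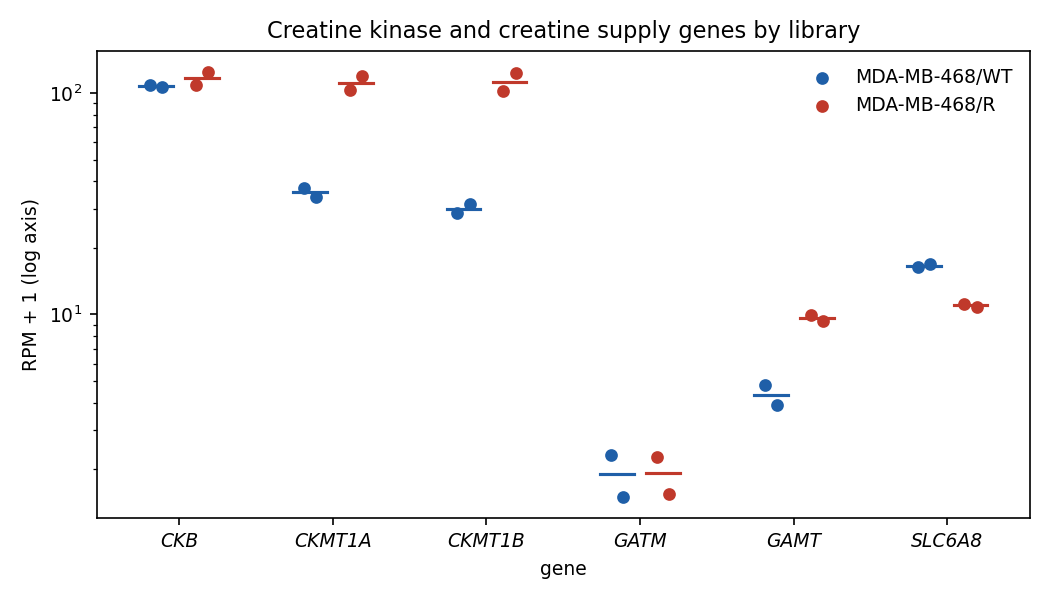
The y axis gives RPM plus 1 on a log scale and the x axis the 6 genes. Each point is 1 library, blue for WT and red for R, and lines mark the means. Red points lie above blue points for CKMT1A, CKMT1B and GAMT, and below them for SLC6A8. For CKB 1 red point lies between the blue points and 1 above them, and for GATM both lie between them.

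The mitochondrial enzyme, whose higher level chose this set of genes, carried the largest differences of the system. CKMT1A had 248 and 264 reads in MDA-MB-468/WT and 716 and 867 reads in MDA-MB-468/R. This was 34.7 ± 2.27 RPM (SD, n = 2) against 110 ± 11.4 RPM, a 3.18-fold difference in RPM and a log2 difference of 1.64 (standard error 0.129). CKMT1B had 189 and 244 reads in MDA-MB-468/WT and 706 and 897 reads in MDA-MB-468/R. Both resistant libraries thus stood well above both parental libraries for each copy. The level of CKMT1B was 29.1 ± 2.06 RPM against 112 ± 15.4 RPM, a 3.84-fold difference and a log2 difference of 1.90 (standard error 0.139). Summed over both copies, the level was 63.9 and 63.6 RPM in the WT libraries and 203 and 241 RPM in the R libraries. The parental libraries were nearly equal, and the spread lay within MDA-MB-468/R, where replicate 2 was higher than replicate 1. The sum was 3.48-fold higher in MDA-MB-468/R, with a log2 difference of 1.78 (standard error 0.119) that ranged from 1.66 to 1.90 with any 1 library left out. Among the log2 differences of the 12118 tested genes, ordered from the largest increase, CKMT1B was number 34 and CKMT1A number 47. Since the rise of these genes chose the set, nothing is read from these ranks.

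**Figure D2:**
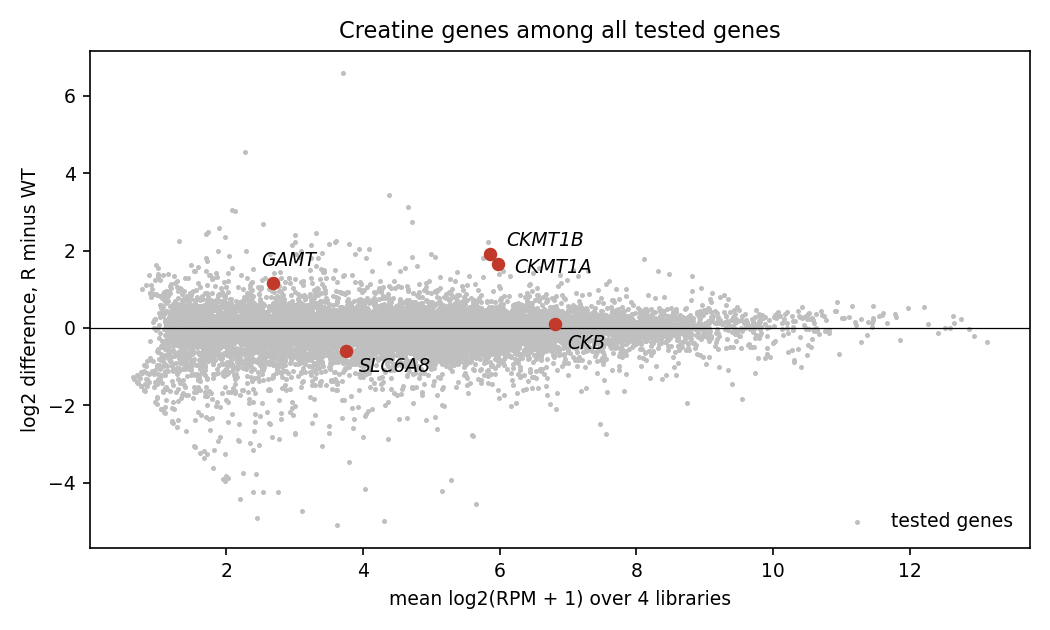
Log2 difference of MDA-MB-468/R minus MDA-MB-468/WT on the y axis against the mean log2(RPM + 1) of the 4 libraries on the x axis. Grey points are the 12118 tested genes and red points are the 5 tested creatine genes, with CKMT1B at 1.90, CKMT1A at 1.64, GAMT at 1.16, CKB at 0.11 and SLC6A8 at -0.60.

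Within a library the reads were divided almost evenly between the copies. CKMT1A took 56.8% of the CKMT1 reads in WT replicate 1 (95% Wilson interval 52.1% to 61.3%) and 52.0% in WT replicate 2 (47.6% to 56.3%). In MDA-MB-468/R it took 50.4% (47.8% to 52.9%) in replicate 1 and 49.1% (46.8% to 51.5%) in replicate 2. The share was lower in both R libraries than in both WT libraries, but the intervals of the latter reached those of the former except for WT replicate 1 against R replicate 2. With 2 libraries per group an exact test of a single value cannot reach 0.05, and none was made. How the mapping divides a read that fits both copies is not given in the sources used here. The intervals cover counting error only, since PCR copies that carry no molecular identifier may stem from 1 molecule.

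CKB, the cytosolic partner, was close to level between the groups. It had 740 and 839 reads in MDA-MB-468/WT and 752 and 904 reads in MDA-MB-468/R, or 107 ± 2.11 RPM (SD, n = 2) against 115 ± 11.4 RPM. R replicate 1 lay between the WT libraries and R replicate 2 above them, so the groups overlapped. The log2 difference was 0.11 (standard error 0.115), and it moved to 0.01 or 0.21 when the second or the first R library was left out. The number of CKMT1 reads per CKB read was therefore 0.591 and 0.605 in the WT libraries and 1.89 and 1.95 in the R libraries. This ratio compares libraries with each other and says nothing of which transcript was more abundant in the cell, since the amplicons differ. Of the muscle enzymes, CKM had 0 reads in all 4 libraries, which allows up to 0.376 to 0.438 RPM per library. CKMT2, the sarcomeric mitochondrial enzyme, had 3 to 6 reads per library. Neither was tested.

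**Figure D3:**
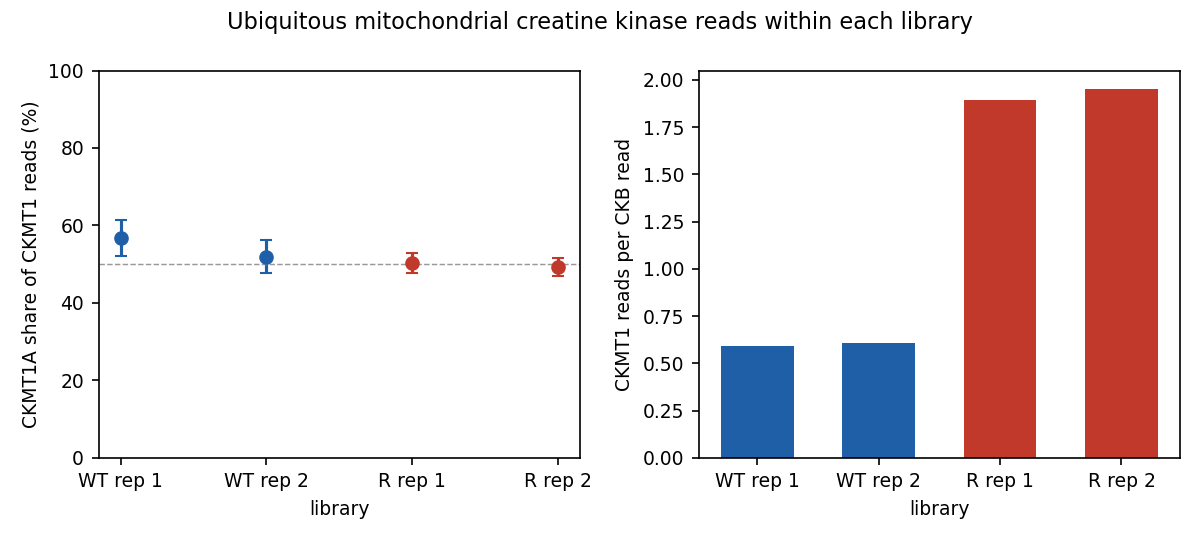
Left, the share of CKMT1A among the reads of CKMT1A and CKMT1B in each library (y axis, percent) with 95% Wilson intervals and a dashed line at an even division. Right, the reads of both genes per read of CKB. Shares run from 49.1% to 56.8%, while the ratio is 0.591 and 0.605 in the WT libraries (blue) and 1.89 and 1.95 in the R libraries (red).

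The synthesis genes differed from each other. GAMT, the methyltransferase of the last step (chromosome 19p13), had 26 and 23 reads in MDA-MB-468/WT and 63 and 61 reads in MDA-MB-468/R. Its level was 3.34 ± 0.636 RPM (SD, n = 2) against 8.65 ± 0.473 RPM, 2.59-fold higher in MDA-MB-468/R. The groups did not overlap, but the counts were low. The log2 difference was 1.16 (standard error 0.206) with 1 RPM added before the logarithm, 0.79 with 4 RPM added and 1.32 with 0.25 RPM added. GATM, the amidinotransferase of the first step, had 9 and 4 reads in MDA-MB-468/WT and 9 and 4 reads in MDA-MB-468/R, or 0.909 ± 0.571 RPM against 0.915 ± 0.519 RPM. The libraries of the groups overlapped fully, and at this depth no difference was detectable. A single WT or R library left out moved its log2 difference between -0.30 and 0.32.

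The creatine transporter was the member that was lower. SLC6A8, at Xq28, had 105 and 127 reads in MDA-MB-468/WT and 71 and 72 reads in MDA-MB-468/R. The level was 15.6 ± 0.407 RPM (SD, n = 2) in the WT and 10.01 ± 0.216 RPM in the R libraries, 1.56-fold lower in the latter, and the groups did not overlap. The log2 difference was -0.60 (standard error 0.161). Without 1 library it stayed between -0.62 and -0.57. GAMT and SLC6A8 stood on opposite sides, with 0.248 and 0.181 GAMT reads per SLC6A8 read in the WT libraries and 0.887 and 0.847 in the R libraries.

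The genes that feed or surround the creatine system were read by limma's moderated test with an adjusted p over all 12118 genes, of which 5.36% were higher and 10.6% lower. The median log2 difference of all tested genes was -0.03. Of 15 genes that handle arginine and ornithine, the substrate and product of GATM, 9 were tested, 1 was higher and none was lower at the adjusted p, and the median was 0.00. The gene that passed was ODC1, which converts ornithine to putrescine and rose from 110 ± 3.81 RPM (SD, n = 2) to 164 ± 2.42 RPM (log2 difference 0.57, standard error 0.101, adjusted p = 0.0102 from limma). ASS1, which makes the precursor of arginine and was the most abundant of the list, had 711 ± 17.4 RPM in the WT and 690 ± 54.1 RPM in the R libraries. Glycine is the other substrate of GATM, and none of 5 tested genes of 7 passed (median 0.24), with SHMT2 at 88.6 ± 0.439 and 110 ± 24.7 RPM.

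Of 14 genes of the S-adenosylmethionine cycle, which provides the methyl group for GAMT, 11 were tested, 1 was lower and none was higher (median 0.02). MTR, methionine synthase, fell from 42.9 ± 1.51 RPM (SD, n = 2) to 28.9 ± 1.76 RPM (log2 difference -0.56, adjusted p = 0.0284 from limma). MAT2A, which makes S-adenosylmethionine, had a log2 difference of 0.38 with an adjusted p of 0.0622 from limma and did not pass. Among 18 adenylate and other nucleotide kinases, the companions of creatine kinase in phosphate transfer, 13 were tested, 1 was higher and 1 was lower (median 0.02). AK5, a cytosolic adenylate kinase, rose from 10.9 ± 1.80 to 18.5 ± 0.860 RPM. CMPK2, a mitochondrial nucleotide kinase induced by interferon, had 99 and 117 reads in MDA-MB-468/WT and 0 and 1 reads in MDA-MB-468/R. CMPK2 reached the minimum of reads only in the WT libraries, so nothing is read from its part in the count of lower genes. None of the 7 tested genes for subunits of the energy sensor AMPK and its activator LKB1 passed (median 0.15), with the catalytic subunit PRKAA1 at 50.7 ± 3.54 and 61.9 ± 7.999 RPM. None of 11 tested mitochondrial partners passed either (median -0.04), a list of the porins VDAC1 to VDAC3, the adenine nucleotide carriers SLC25A4 to SLC25A6 and others. SLC25A5, the most abundant carrier, had 1573 ± 61.7 RPM in the WT and 1544 ± 234 RPM in the R libraries.

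Ion pumps are large users of ATP. Of 16 in the list, 8 were tested, 1 was higher and 2 were lower (median 0.11). ATP1B1, a beta subunit of the sodium pump, fell from 428 ± 6.31 RPM (SD, n = 2) to 292 ± 44.3 RPM (log2 difference -0.56, adjusted p = 0.0218 from limma), and the plasma membrane calcium pump ATP2B4 fell from 124 ± 2.46 to 53.4 ± 9.29 RPM (log2 difference -1.22, adjusted p = 0.00175 from limma). Of the genes named here with a pass in these pathway lists, CMPK2 alone still passed without WT replicate 1 or without WT replicate 2, where the highest adjusted p was 0.411 (AK5). AK5 did not pass without R replicate 1 (0.0908), without R replicate 2 (0.109) or without the filter on low values, nor did MTR without R replicate 2 (0.0510).

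The relatives of SLC6A8 were followed as well. Of 19 listed genes, 18 further SLC6 transporters and the creatine carrier SLC16A12, 8 had no read in any library and 7 were tested. Of these 7, 4 were lower, 1 was higher and 2 did not pass, where 10.6% of all tested genes were lower and 5.36% higher. The median log2 difference was -0.91 against -0.03 for all tested genes. SLC6A6, the taurine transporter, fell from 71.0 ± 1.41 RPM (SD, n = 2) to 28.8 ± 3.49 RPM (log2 difference -1.28, standard error 0.134, adjusted p = 0.00112 from limma). SLC6A14, a broad amino acid transporter, fell from 34.9 ± 2.99 to 18.1 ± 1.03 RPM, and SLC6A17, a vesicular amino acid transporter, from 18.3 ± 1.70 to 8.01 ± 2.61 RPM. SLC6A20, a proline transporter, fell from 2.29 ± 0.0646 to 0.764 ± 0.276 RPM, with 4 and 7 reads in the R libraries. SLC6A20 reached the minimum of reads only in the WT libraries, with 16 and 18 reads, so it was let in only as a gene low in MDA-MB-468/R. Nothing is read from its part in the count of lower genes or in the median. SLC6A2, the noradrenaline transporter, rose from 21.1 ± 1.41 to 41.2 ± 1.24 RPM (log2 difference 0.94, adjusted p = 0.00478 from limma). None of the 5 passed without WT replicate 1 or without WT replicate 2 (highest adjusted p = 0.295). SLC6A20 was also lost without R replicate 1 (0.0914) or R replicate 2 (0.0613), and SLC6A17 without R replicate 2 (0.0543).

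**Figure D4:**
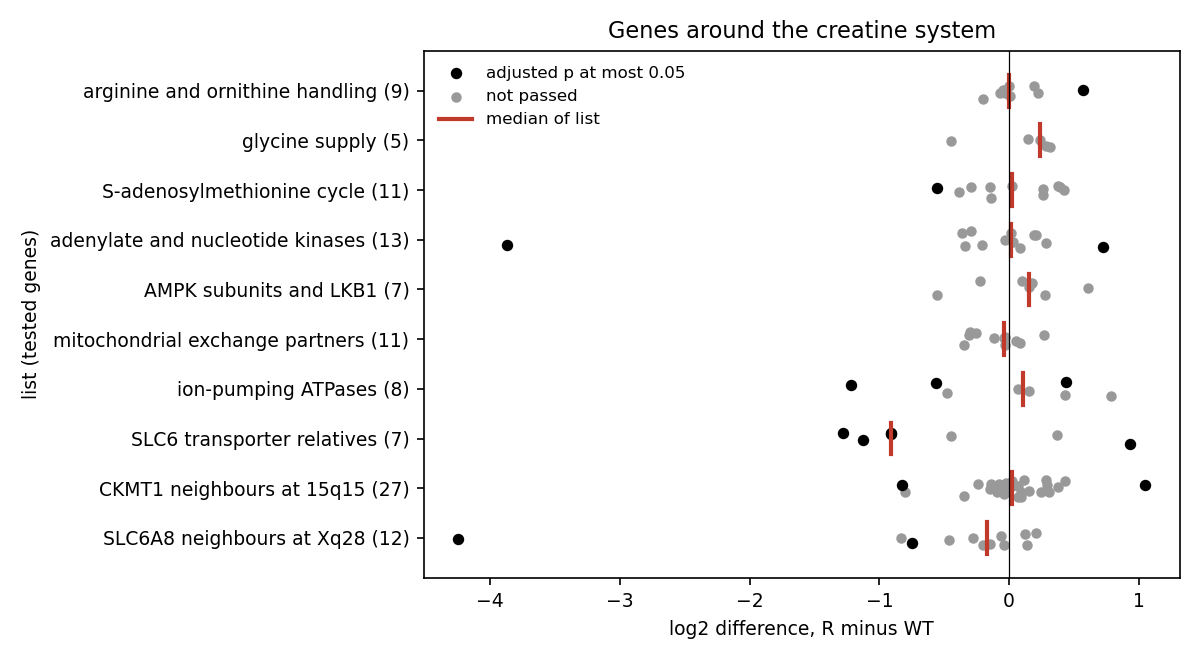
Log2 difference of MDA-MB-468/R minus MDA-MB-468/WT on the x axis for the tested genes of 10 lists on the y axis, with the number tested in brackets. Black points had an adjusted p of at most 0.05, grey points did not, and red bars are medians, which lie between -0.17 and 0.24 except for -0.91 in the SLC6 relatives.

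The genes around CKMT1B and CKMT1A were examined for a difference shared along the chromosome. Of 32 listed neighbors at 15q15, 27 were tested, 1 was higher, 1 was lower and 25 did not pass, where 5.36% of all tested genes were higher and 10.6% lower. The median log2 difference of the neighbors was 0.02. STRC and CATSPER2 are the listed genes that lie between the copies. STRC, which encodes stereocilin of the inner ear, had 13 and 13 reads in MDA-MB-468/WT and 39 and 29 reads in MDA-MB-468/R, with a log2 difference of 1.05 (standard error 0.236, adjusted p = 0.0243 from limma). The call on STRC was lost without R replicate 1 (0.0795), without WT replicate 1 (0.224) and without WT replicate 2 (0.276). It also has a near copy, and 74.6% of its windows of 110 bases occur in other loci, first of them the pseudogene STRCP1. CATSPER2, a sperm calcium channel subunit, had 17 and 30 reads in MDA-MB-468/WT and 16 and 25 reads in MDA-MB-468/R (log2 difference -0.10). The nearest listed genes outside the pair were PPIP5K1, with a log2 difference of 0.02, and PDIA3, an endoplasmic reticulum folding enzyme, with 0.07, and neither passed. TMEM62, further away, fell from 12.9 ± 0.0680 RPM (SD, n = 2) to 6.84 ± 0.384 RPM and lost its call without WT replicate 1 (0.274) or WT replicate 2 (0.279). The 3 differences above 1 in this stretch were those of CKMT1B, STRC and CKMT1A.

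**Figure D5:**
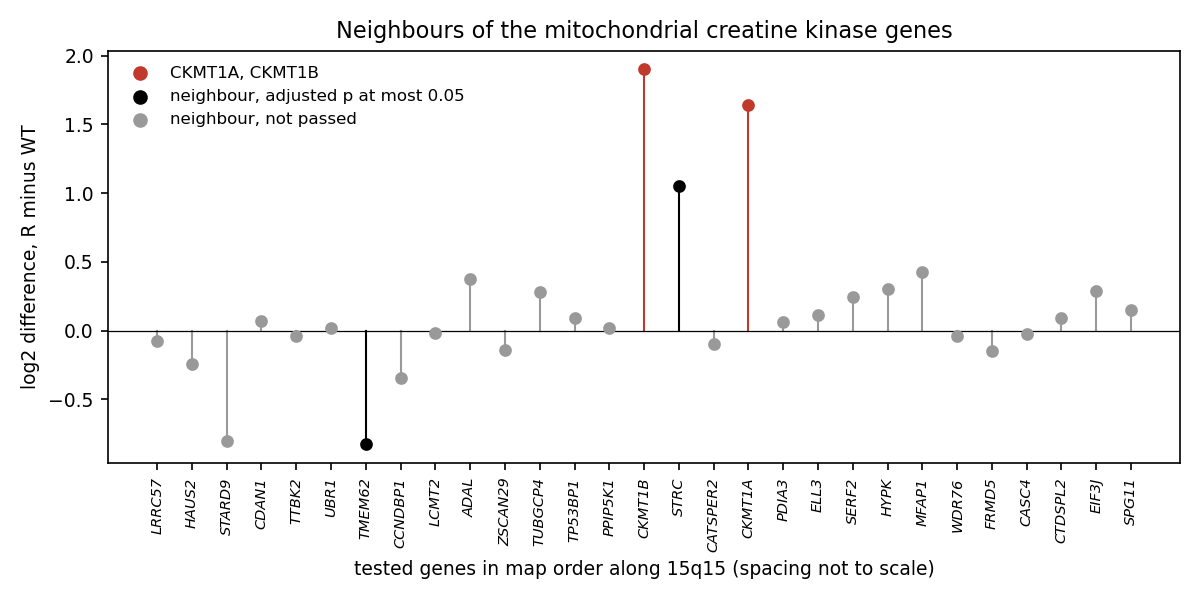
Log2 difference of MDA-MB-468/R minus MDA-MB-468/WT on the y axis for the tested genes of the 15q15 stretch in map order on the x axis, with spacing not to scale. CKMT1B (1.90) and CKMT1A (1.64) are in red, the neighbors STRC (1.05) and TMEM62 (-0.83) that passed the test are in black, and the other neighbors, in grey, did not pass.

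Of 20 listed neighbors of SLC6A8 at Xq28, 12 were tested, 2 were lower and none was higher. Over all tested genes 10.6% were lower and 5.36% higher. The median log2 difference of the neighbors was -0.17, against -0.03 for all tested genes. Among the lower genes was L1CAM, a cell adhesion molecule, which had 137 and 191 reads in MDA-MB-468/WT and 2 and 1 reads in MDA-MB-468/R. DUSP9, which did not pass, had 11 and 11 reads in MDA-MB-468/WT and 5 and 1 reads in MDA-MB-468/R. L1CAM and DUSP9 reached the minimum of reads only in the WT libraries, so they were let in only as genes low in MDA-MB-468/R. Nothing is read from the part of L1CAM in the count or of either gene in the median. BCAP31, which lies beside SLC6A8, had 30.04 ± 1.67 RPM in the WT and 33.2 ± 1.51 RPM in the R libraries and did not pass. IDH3G, a subunit of mitochondrial isocitrate dehydrogenase and the most abundant of the list, had 384 ± 15.1 and 368 ± 23.5 RPM.

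The tested genes whose values over the 4 libraries were most like those of the summed CKMT1 reads were NRK, RAB38, PPFIBP2, RASGRF1 and VEPH1. Likeness was the Euclidean distance between log2 values centred on their own mean, which was 0.0774 for NRK, 0.102 for RAB38 and 0.192 for VEPH1, against a median of 1.84 over 12116 genes. NRK had 55 and 61 reads in MDA-MB-468/WT and 196 and 230 reads in MDA-MB-468/R, and RAB38 had 87 and 105 against 326 and 376 reads. Within a distance of 0.2 there were 6 genes. For CKB the nearest were C3orf33, DNAJC30, MTFP1, C2orf47 and HBP1, at distances from 0.0141 to 0.0296, and 1527 genes lay within 0.2 of CKB. Over 4 libraries in 2 groups this distance mostly follows the difference between the groups, which for CKMT1A and CKMT1B chose the genes, so nothing is read from how many genes were near.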

How the data were processed

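RNA of the parental line and its resistant subline (2 libraries each) was measured with the Ion AmpliSeq Transcriptome kit. According to the study's methods the reads were mapped with the Torrent Mapping Alignment Program to the transcripts targeted by the kit, and Bowtie2, bedtools and edgeR are listed, with no version, in the processing notes of the submitters. The genome build is not given in the sources used here. The authors deposited log2 values of RPM plus 1, rounded to 2 decimals. Reads were recovered from the lowest values, and each value worth 20 reads or fewer came out whole within 0.1. This gave 6845811 to 7980288 reads per library, and a floor of 3 reads was 0.376 to 0.438 RPM. The 10 spike-in rows were left out.

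The log2 values were fitted by group with limma 3.58.1 in R 4.3.3 (empirical Bayes with a mean trend, 2 residual degrees of freedom) in the 12118 genes with at least 10 reads in at least 2 libraries, with Benjamini-Hochberg adjustment. The fit was tested on simulated data. The study's methods name DEGSeq, which has no term for the spread between replicates and was not used. Since separate cultures are not stated, the p-values rest on a spread between libraries that may be only technical. The genes and lists were chosen with earlier results of these data known. Genes named from a list were those that passed (at most 6, by size of change) and the most abundant one. The genes named for likeness were the 5 nearest to each profile, and a few further genes (CATSPER2, PPIP5K1, BCAP31) were named for their position after their values were seen. AK9 and SERINC4 were not analysed here. A few list genes that the naming rule would include are not reported here. Sequences came from GENCODE 29 transcripts and RefSeq promoter windows, and that of GAMT was not used.

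The alternatives were 0.25 or 4 RPM added in place of 1, no filter on low values, median-of-ratios (RLE) scaling, limma-voom on the recovered reads, each library left out, the replicate number as a block, and both CKMT1 copies summed.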

Additional observations from a re-analysis of the deposited data

How the results depend on the processing

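All log2 differences of CKMT1A, CKMT1B, GAMT and SLC6A8 kept their sign under the alternatives run. Adding 4 RPM in place of 1 moved GAMT to 0.79 and SLC6A8 to -0.49, adding 0.25 RPM moved them to 1.32 and -0.63, and limma-voom on the recovered reads to 1.37 and -0.64. Summing the copies gave 1.78, above the 1.64 of CKMT1A alone. With 1 library left out the differences ranged from 1.54 to 1.75 for CKMT1A and from 1.76 to 2.04 for CKMT1B. Over all tested genes, 98 higher and 297 lower genes passed the adjusted p and the 2.5-fold threshold. These became 51 and 140 with 4 RPM added, 158 higher (417 lower) with limma-voom, and, with 1 library left out, 9 to 90 higher and 48 to 307 lower. At the adjusted p alone, 649 higher and 1290 lower genes became 9 to 751 and 48 to 1305 with 1 library left out, and in the pathway and neighbor lists 5 higher and 11 lower genes became 0 to 9 and 2 to 15. The lowest counts came without either WT library, where the fit takes the lone WT library to vary like the R libraries. Over the tested genes the log2 difference between replicates had an SD of 0.355 in the R and 0.210 in the WT libraries. The cause of the low counts was not tested.

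Same-numbered libraries share only a number in the labels, and their deviations from the group means were not correlated (r = 0.00868 across genes). With the replicate block 98 higher and 299 lower genes passed, 497 higher and 1114 lower at the adjusted p alone, and 13 of the 16 list genes that had passed still did, while SLC6A8, MTR (adjusted p = 0.0525 from limma) and SLC6A20 (0.0666) did not. Depth limits GATM (4 to 9 reads per library), CKMT2 and CKM most.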
